A study of Mus musculus with 16 samples.

Results

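G1E-ER4 cells at 50 nM beta-estradiol were compared with the same cells at 25 nM, across all genes of the deposited raw count table. The members were chosen from the labels alone: the 2 libraries labelled 50 nM and the 2 labelled 25 nM, 4 of the 16 libraries of the series. The whole series holds 8 doses (0, 12.5, 25, 50, 75, 100, 150 and 200 nM) with 2 replicates each. G1E-ER4 is a clonal mouse erythroid progenitor line whose own Gata1 gene is disrupted and which expresses a fusion of GATA1 with an estrogen receptor domain. Every group has this fusion, the 0 nM group included. All groups grew in a serum medium with stem cell factor and erythropoietin, and the groups differ by the labels only in the amount of beta-estradiol. How long the cells were exposed is not stated by the labels. No group lacks the fusion, so the response to GATA1 and any other response to beta-estradiol cannot be told apart here.

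GATA1 is the zinc finger transcription factor that drives progenitors to become red cells. In this line beta-estradiol lets the fusion protein enter the nucleus, so the dose sets how much GATA1 can act. Nuclear GATA1 is known to displace GATA2 at shared sites, to activate genes for globin, heme synthesis and the red cell membrane, and to lower genes of the progenitor state such as Kit and Gata2. As red cells mature they build hemoglobin and a spectrin skeleton, divide for a last time, and later clear their organelles and ribosomes.

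The libraries were made with Smart-seq2 from total RNA. The 25 nM libraries held 15611823 and 14030743 counts and the 50 nM libraries 15121181 and 15265661, within the series' range of 9393156 to 15802510. Of 23410 genes in the table, 10080 had enough counts to be tested. The 45S ribosomal precursor Rn45s took 10.1% and 10.9% of the counts at 25 nM and 10.1% and 9.63% at 50 nM. Of 10 erythroid markers listed, 8 were in the count table, and all 8 passed the test as higher at 50 nM. Over all tested genes, 14.1% were higher and 12.1% lower. The summed level of these erythroid markers was 2210 and 2242 at 25 nM and 4988 and 5095 at 50 nM, in CPM (counts scaled to a common library size). Of the megakaryocyte and platelet markers 7 were tested, 3 were higher and 1 lower, and their summed level was 37.5 and 34.0 CPM at 25 nM and 61.4 and 60.2 CPM at 50 nM, with Gp1bb, Ppbp, Vwf and Thbs1 at 0 counts. The mast cell list had 3 tested members and the granulocyte and macrophage list 2, none of which passed, and their summed levels were at most 4.60 CPM in each of the 4 libraries. The part of these other programmes in the results was not tested, and in bulk RNA more cells of a type and more RNA per cell cannot be told apart.

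Gata1 and Gata2 moved in opposite directions between 25 and 50 nM. Gata1 was at 848 and 766 CPM at 25 nM and at 1063 and 1152 CPM at 50 nM, a log2 fold change of 0.46 ± 0.07 (SE; adjusted p = 0.00111, edgeR quasi-likelihood test with Benjamini-Hochberg adjustment, as for every adjusted p here). Reads of the fusion transcript and of the Gata1 locus cannot be separated in gene counts. Gata2, the GATA factor of early progenitors, was at 126 and 115 CPM at 25 nM and at 68.9 and 87.3 CPM at 50 nM, a log2 fold change of -0.63 ± 0.09 (adjusted p = 0.000107). The libraries of the 2 doses did not overlap for either gene, as was found for 59.6% of all tested genes. The 50 nM libraries of Gata2 lay further apart than those of 25 nM.

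Across the transcriptome, 1424 genes were higher at 50 nM, 14.1% of those tested, and 1215 were lower, 12.1%, so that 26.2% were called at an adjusted p below 0.05. At an unadjusted p below 0.05 the counts were 1937 and 1738. Many calls were small: 667 of the genes called higher and 687 of those called lower differed by less than 1.25-fold. The median called gene was 1.27-fold higher or 1.22-fold lower. At least 2-fold differences were found for 151 genes called higher and 77 called lower. The median log2 fold change of all tested genes was 0.0054, with 5161 genes above 0 and 4915 below. The 2 libraries at 50 nM did not overlap with the 2 at 25 nM for 6007 genes, 59.6% of those tested. Nothing in the labels says that replicates were separate cultures, so the p-values measure only a spread between libraries, which may be technical. That spread was estimated over all 16 libraries. By a chi-square summed over genes, the replicates at 25 and 50 nM differed more than those of the other doses.

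**Figure D1:**
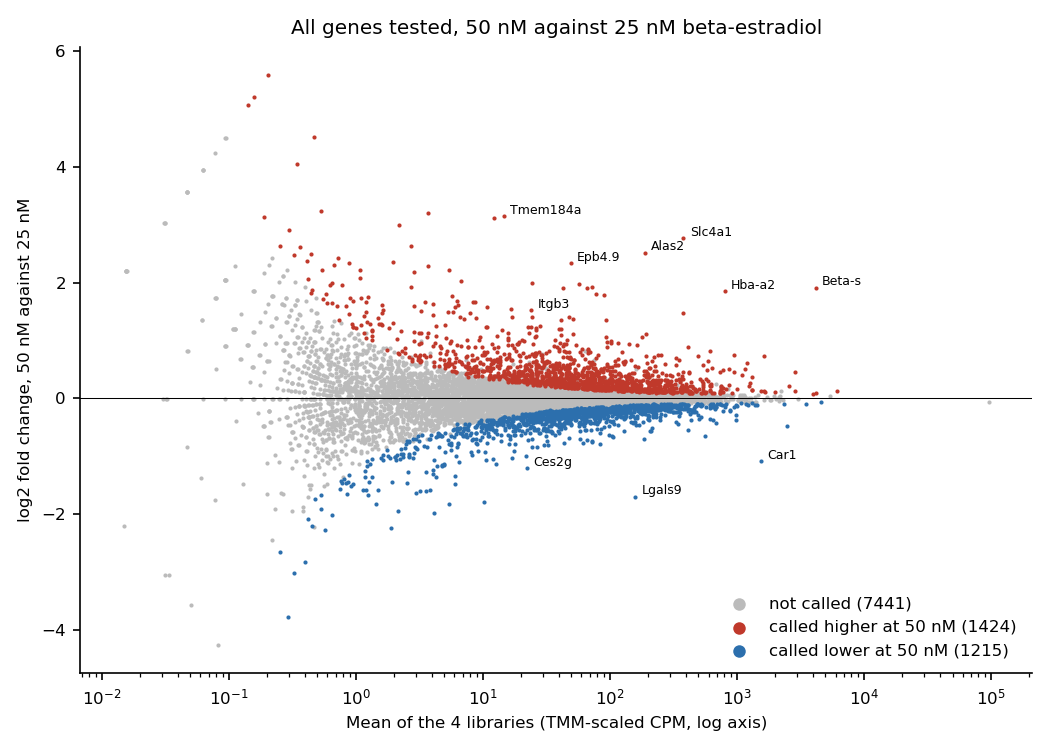
Each point is 1 of 10080 tested genes, with its mean level over the 4 libraries (TMM-scaled CPM, log axis) and its log2 fold change at 50 against 25 nM. Red points (1424) were called higher, blue points (1215) lower, and grey points were not called; among highly expressed genes, Slc4a1, Alas2, Hba-a2 and Beta-s lie far above the rest and Lgals9 and Car1 far below.

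The start regions of the strongest movers are shown first, because GATA1 acts by binding DNA and the fold changes that follow can be read beside them. They are the genes with the largest rises and falls that RefSeq lists a promoter for (Tmem184a, Alas2, Lgals9 and Ces2g, build GRCm38.p6). Each is printed 5' to 3' on the gene's strand, from 250 bases before the RefSeq start towards it, without bases that GENCODE M21 places in an exon. Capitals mark, on either strand, the motif AGATAA, to which erythroid zinc finger factors such as GATA1 are known to bind. The KLF site CCACACC was searched on both strands too. The E-box CACGTG, which reads the same on both, was the last motif searched, and none of the 3 overlaps another here. Tmem184a has 2 RefSeq starts, of which the more upstream is used.

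Tmem184a, chr5:139814284-139814533, minus strand: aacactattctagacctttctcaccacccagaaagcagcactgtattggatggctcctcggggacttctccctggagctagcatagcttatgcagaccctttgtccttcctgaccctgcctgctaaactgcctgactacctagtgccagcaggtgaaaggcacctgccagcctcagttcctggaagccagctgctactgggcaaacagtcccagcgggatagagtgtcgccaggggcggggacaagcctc

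Alas2, chrX:150547167-150547374, plus strand: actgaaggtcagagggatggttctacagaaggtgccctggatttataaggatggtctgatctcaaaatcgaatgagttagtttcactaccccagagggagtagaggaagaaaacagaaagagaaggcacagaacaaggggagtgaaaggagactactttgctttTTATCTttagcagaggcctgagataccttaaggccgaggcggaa

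Lgals9, chr11:78984947-78985174, minus strand: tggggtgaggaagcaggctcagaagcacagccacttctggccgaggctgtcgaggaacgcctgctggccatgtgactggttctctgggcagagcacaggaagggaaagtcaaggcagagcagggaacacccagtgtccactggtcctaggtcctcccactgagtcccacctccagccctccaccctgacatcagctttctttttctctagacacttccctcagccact

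Ces2g, chr8:104961468-104961717, plus strand: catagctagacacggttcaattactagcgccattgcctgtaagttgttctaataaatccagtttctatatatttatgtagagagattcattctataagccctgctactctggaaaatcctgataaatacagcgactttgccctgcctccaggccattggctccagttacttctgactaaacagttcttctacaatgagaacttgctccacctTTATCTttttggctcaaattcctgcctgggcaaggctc

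Alas2 has 1 match to AGATAA, read as its reverse complement, which begins 86 bases before the start, and Ces2g has 1 that begins 38 bases before it. Tmem184a and Lgals9 have none of the 3 motifs in the 250 bases, and a missing match says only that these letters are not in this window. Over all tested genes with a RefSeq promoter (8125), AGATAA was found in 5.77%, against 5.76% of genes called higher and 5.26% of those called lower. CCACACC was found in 6.31% of all, 5.93% of the higher and 7.59% of the lower genes. CACGTG was found in 9.06%, 9.88% and 9.72%. For each of the 3 motifs the shares in higher, lower and all genes lay close together.

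Among the 12 highest called genes of at least 20 CPM were Slc4a1 and Epb4.9 of the red cell membrane, Alas2 of heme synthesis and 4 globin genes. Slc4a1 (chr11:102348824-102366203, minus strand) encodes band 3, the anion exchanger and main membrane protein of the red cell. It was at 101 and 95.0 CPM in the 25 nM libraries and at 662 and 667 CPM in the 50 nM libraries, 6.78-fold higher (log2 2.76 ± 0.03 SE, adjusted p = 1.39e-46). Alas2, the erythroid enzyme that starts heme synthesis, was at 54.6 and 57.3 CPM at 25 nM and at 314 and 327 CPM at 50 nM (log2 2.52 ± 0.04, adjusted p = 2.02e-42). In both genes the replicates lay close together, and the 12 highest were picked from genes without overlap between the doses.

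Tmem184a, a transmembrane protein gene, had the largest rise among genes of at least 20 CPM. It went from 2.33 and 3.64 CPM at 25 nM to 25.8 and 26.9 CPM at 50 nM (log2 3.15 ± 0.12, adjusted p = 9.53e-27). The embryonic beta-like globin Hbb-bh1 was at 2.03 and 3.10 CPM and then at 22.0 and 22.1 CPM (log2 3.11 ± 0.13, adjusted p = 6.27e-21). Epb4.9, now named Dmtn, encodes dematin of the membrane skeleton. Its level was 18.0 and 14.4 CPM at 25 nM and 80.2 and 84.9 CPM at 50 nM (log2 2.34 ± 0.07, adjusted p = 1.78e-24).

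Growth control genes were also among the 12 highest. Cdc25b, a phosphatase that activates mitotic kinases, was at 24.6 and 21.3 CPM at 25 nM and at 87.3 and 94.8 CPM at 50 nM (log2 1.98 ± 0.06). Btg2, an antiproliferative gene, was at 29.7 and 31.0 CPM and then at 119 and 111 CPM (log2 1.92 ± 0.05). Plekho2 rose by a log2 value of 1.90 ± 0.07, from 18.4 and 17.9 CPM to 69.2 and 66.5 CPM. Csf2rb, the common beta chain of the interleukin-3 family of receptors, rose from 8.85 and 10.7 CPM to 37.8 and 39.6 CPM (log2 1.99 ± 0.09). Csf2rb has a near-identical copy, Csf2rb2, which went from 1.44 and 2.50 CPM to 9.77 and 8.22 CPM (log2 2.21 ± 0.19), and how reads were shared between the pair is uncertain.

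The remaining members of the 12 highest were adult globins. Beta-s, an adult beta globin gene, was at 1700 and 1830 CPM at 25 nM and at 7102 and 6194 CPM at 50 nM (log2 1.91 ± 0.06). Hbb-b1 was at 26.6 and 29.7 CPM and then at 92.7 and 118 CPM (log2 1.91 ± 0.12). Hba-a2, an adult alpha globin gene, was at 345 and 353 CPM and then at 1210 and 1313 CPM (log2 1.85 ± 0.03). Adult globin genes have near-identical copies, so the split of reads among them is uncertain, while the rise was seen in each.

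**Figure D2:**
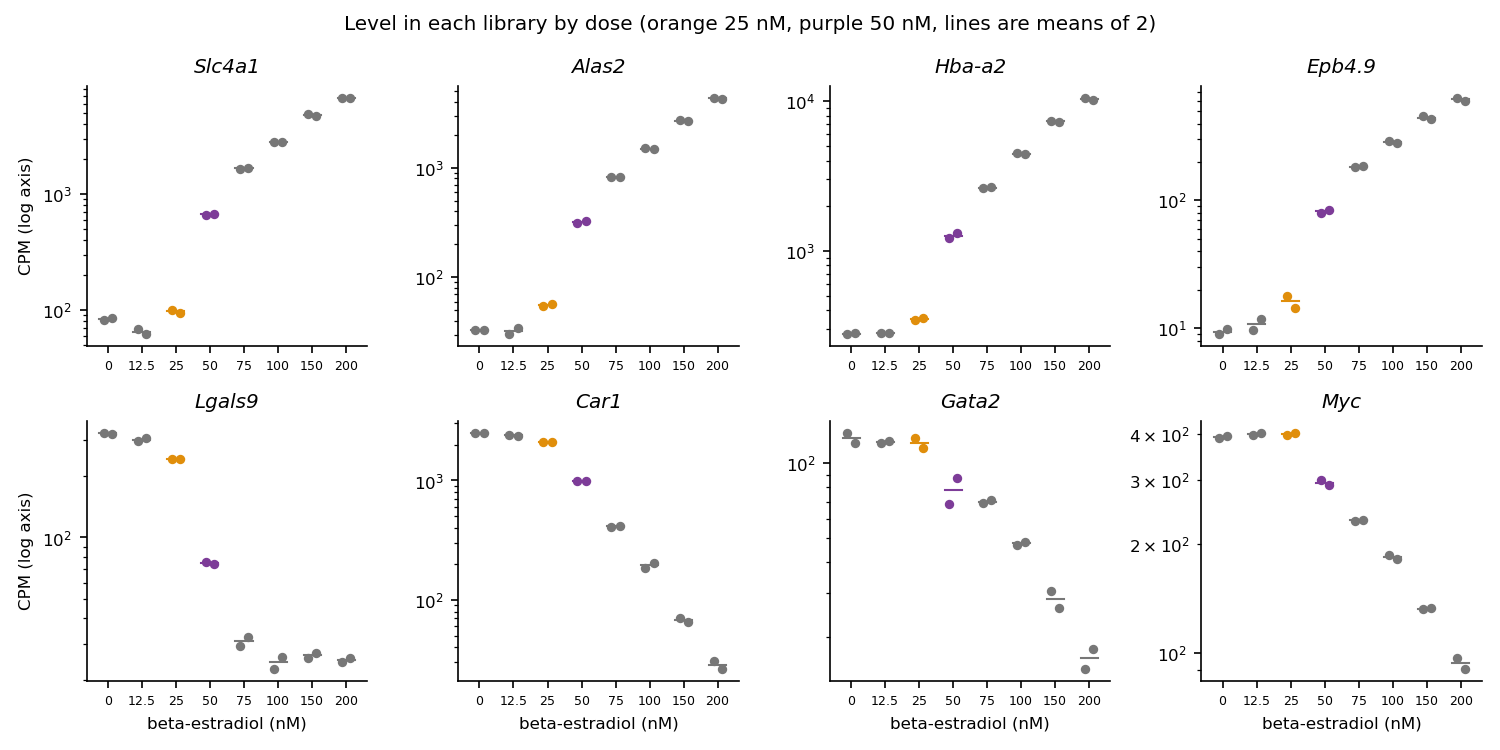
Level of 8 genes in each library (CPM, log axis) at the 8 doses of beta-estradiol in nM, spaced evenly; points are libraries, lines are means of 2, orange marks 25 nM and purple 50 nM. Slc4a1, Alas2, Hba-a2 and Epb4.9 stand higher at 50 than at 25 nM, and Lgals9, Car1, Gata2 and Myc stand lower. The 2 doses do not overlap for these genes, as for 59.6% of all tested genes.

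The largest falls were smaller than the largest rises. Lgals9 (chr11:78962974-78984946, minus strand), which encodes the sugar-binding protein galectin 9, fell the most among genes of at least 20 CPM. It was at 244 and 243 CPM at 25 nM and at 75.9 and 74.2 CPM at 50 nM, 3.24-fold lower (log2 -1.70 ± 0.05, adjusted p = 2.09e-31). The carboxylesterase gene Ces2g was at 31.7 and 30.3 CPM and then at 13.7 and 13.2 CPM (log2 -1.20 ± 0.11, adjusted p = 4.17e-13). Car1 (chr3:14766216-14808368, minus strand) encodes a carbonic anhydrase of red cells, and it fell from 2106 and 2119 CPM to 996 and 987 CPM (log2 -1.09 ± 0.03, adjusted p = 2.82e-29). Each of these genes had 2 tight pairs of libraries. The pairs were separate by choice, because the lowest genes were picked from those without overlap between the doses.

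Genes of the cell surface were also among the 12 lowest. St8sia4, a sialyltransferase that builds polysialic acid, was at 22.5 and 23.3 CPM at 25 nM and at 11.9 and 10.5 CPM at 50 nM. Il1rl1, the receptor for interleukin-33, was at 30.3 and 28.2 CPM and then at 13.8 and 15.5 CPM. Ifngr1, a chain of the interferon gamma receptor, was at 21.9 and 24.2 CPM and then at 12.6 and 11.9 CPM. Their log2 fold changes were -1.03 ± 0.12, -0.99 ± 0.11 and -0.91 ± 0.12. The semaphorin receptor Plxnc1 fell by 0.84 on the log2 scale, as did Tmem104. Dcun1d4, Pafah2 and Gpd1l had log2 fold changes of -0.80, -0.79 and -0.78, each called. Bnip3, the remaining member of the 12 lowest, is described with the glycolysis genes.

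The globins were the list with the highest median. Of 6 tested, 5 rose and none fell. Their median was 1.88 on the log2 scale, against 0.0054 for all genes. Of all tested genes 14.1% were higher and 12.1% lower, and the counts of every list are to be read beside these shares. Beta-s is not in this list and is described above. Hbq1b, a theta globin, was called with a log2 fold change of 1.66. Embryonic alpha globin Hba-x had 1 and 0 counts at 25 nM and 11 and 18 counts at 50 nM, too few at 25 nM for a fold change. It is nevertheless 1 of the 5 called, and both it and the low-count Hbb-y enter the median. Embryonic Hbb-y had 2 and 1 counts and then 7 and 4, and did not pass (adjusted p = 0.0986).

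Heme is built by enzymes in mitochondria and cytosol and needs carriers across the mitochondrial membranes. Of 17 tested genes of this list 14 rose and none fell, and the median was 0.57 on the log2 scale. With library totals, RLE size factors, either other filter, or without the first 25 nM or the first 50 nM library, 1 gene of the list was called lower. After Alas2 the largest rise was that of Abcb10, a mitochondrial transporter, which was at 196 and 207 CPM at 25 nM and at 559 and 563 CPM at 50 nM (log2 1.48 ± 0.03). Among the enzymes, Alad was at 710 and 727 CPM and then at 1206 and 1199 CPM (log2 0.74), and Ppox at 34.4 and 34.9 CPM and then at 53.6 and 60.4 CPM (log2 0.72). Fech, which inserts the iron, was at 730 and 707 CPM and then at 1010 and 1042 CPM (log2 0.51). Uros, Urod and Cpox rose by log2 values of 0.63, 0.32 and 0.64. Alas1, the enzyme of other tissues for the first step, did not pass, with a log2 fold change of -0.41 (95% confidence interval -0.72 to -0.10, adjusted p = 0.051), and passed with library totals (adjusted p = 0.0389) and without the first 50 nM library (adjusted p = 0.0107). Clpx, the only other member with a negative value, also did not pass, at -0.01.

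Iron genes were less uniform. Of 14 tested, 8 rose and 1 fell, and the median was 0.10. Slc25a37, mitoferrin, which carries iron into mitochondria, rose from 35.9 and 33.8 CPM to 113 and 130 CPM (log2 1.80 ± 0.08). The transferrin receptor Tfrc, which takes up iron, was at 1230 and 1249 CPM and then at 2089 and 2028 CPM (log2 0.73). The ferritin light chain Ftl1 was at 2370 and 2477 CPM and then at 3295 and 3339 CPM (log2 0.45). Tfr2, a transferrin receptor family member that senses iron, fell from 190 and 208 CPM to 149 and 139 CPM (log2 -0.47 ± 0.05).

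The red cell membrane and skeleton list had 18 of 20 tested genes higher and none lower, and a median of 0.65. Slc4a1 and Epb4.9 of this list are described above. Sptb, a spectrin chain, was at 283 and 293 CPM at 25 nM and at 535 and 531 CPM at 50 nM (log2 0.89 ± 0.03). Ankyrin, Ank1, which ties spectrin to band 3, rose from 79.0 and 73.3 CPM to 117 and 114 CPM (log2 0.60 ± 0.05). Epb4.2, Tmod1, Rhd and Kel rose by log2 values of 1.04, 1.02, 0.99 and 0.90. Xk and the urea transporter Slc14a1 did not pass, at 0.16 and 0.02, although Xk did without the first 50 nM library.

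**Figure D3:**
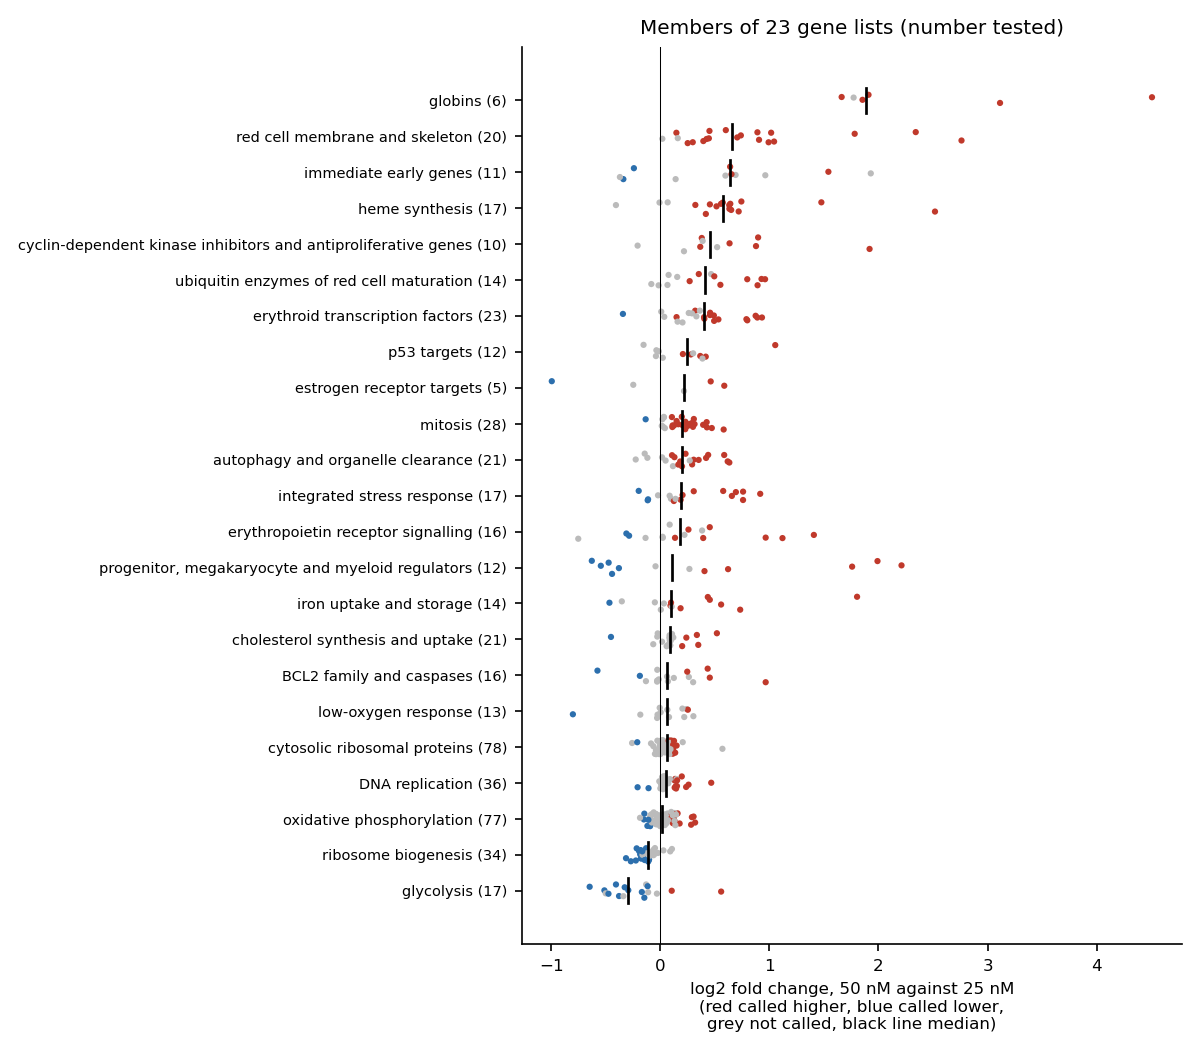
Each point is a tested member of 1 of 23 gene lists (number tested in brackets), placed by its log2 fold change at 50 against 25 nM, with red called higher, blue called lower, grey not called and a black line at the list's median. The lists run from globins (median 1.88) and membrane genes (0.65) at the top to ribosome biogenesis (-0.11) and glycolysis (-0.29) at the bottom.

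Of 23 tested transcription factors of the erythroid programme, 14 rose and 1 fell, and the median was 0.40. Hemgn, an erythroid nuclear protein, was at 98.7 and 97.4 CPM at 25 nM and at 186 and 189 CPM at 50 nM (log2 0.93 ± 0.04). Klf1, the erythroid Kruppel-like factor, had a log2 fold change of 0.32 ± 0.04, and Klf3, Bach1 and Foxo3 had values of 0.87, 0.89 and 0.53, all called. GATA1's partners Tal1, Lmo2, Ldb1 and Zfpm1 (FOG1) did not pass, with log2 fold changes of 0.20, 0.29, 0.04 and 0.26. Lyl1, a relative of Tal1, fell by 0.34 on the log2 scale.

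Regulators of progenitors, megakaryocytes and myeloid cells had 5 higher and 5 lower of 12 tested and a median of 0.11, which was -0.028 without the first 25 nM library. Without the second 50 nM library 3 were higher and 5 lower, the calls of Sfpi1 and Lmo4 being lost. The stem cell factor receptor Kit was at 500 and 483 CPM at 25 nM and at 377 and 379 CPM at 50 nM (log2 -0.38 ± 0.03). Myc, a transcription factor of growth, was at 398 and 402 CPM and then at 299 and 289 CPM (log2 -0.44 ± 0.04). Myb and Hhex fell by 0.47 and 0.55 on the log2 scale. The higher members were Csf2rb, Csf2rb2, Fli1, Lmo4 and Sfpi1. Fli1, an ETS factor of megakaryocytes, was at 0.777 and 0.337 CPM at 25 nM and at 1.97 and 1.93 CPM at 50 nM. Sfpi1, which encodes PU.1 of myeloid cells, was at 4.01 and 4.52 CPM and then at 5.78 and 7.29 CPM (log2 0.62 ± 0.17), and this call was lost without the first 25 nM or without the second 50 nM library.

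Erythropoietin signals through JAK2 and STAT5. Of 16 genes of this pathway 7 rose and 2 fell, and the median was 0.18. Fam132b, which encodes the iron hormone erythroferrone, was at 9.45 and 9.31 CPM at 25 nM and at 24.4 and 25.4 CPM at 50 nM (log2 1.41 ± 0.09). The kinase Pim1 was at 125 and 117 CPM and then at 261 and 267 CPM (log2 1.12), and the survival gene Bcl2l1, which encodes BCL-XL, at 64.7 and 63.3 CPM and then at 128 and 122 CPM (log2 0.97). The receptor Epor and Jak2 had log2 fold changes of 0.13 and 0.39, calls that were lost without the second 50 nM library or without 1 of the 25 nM libraries, and Stat5a and Socs2 fell by 0.29 and 0.31.

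In autophagy and organelle clearance, 14 of 21 tested genes rose and none fell (median 0.20), against 11 and 1 when libraries were scaled by their total alone. The cargo receptor Sqstm1 was at 323 and 312 CPM at 25 nM and at 393 and 393 CPM at 50 nM (log2 0.31 ± 0.03), and the mitophagy receptor Bnip3l had a log2 fold change of 0.23. Of the ubiquitin enzymes of red cell maturation 8 of 14 rose and none fell (median 0.41), with 1 lower under library totals, RLE size factors or the filter of 10 CPM. Trim10, an erythroid ubiquitin ligase, was at 80.1 and 77.1 CPM and then at 151 and 155 CPM (log2 0.96), and Ube2h and Ube2o, conjugating enzymes, had values of 0.93 and 0.80.

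Both inhibitors of the cell cycle and mitotic genes rose, where 14.1% of all genes were higher and 12.1% lower. Of 10 inhibitors and antiproliferative genes 6 rose and none fell (median 0.45). Cdkn1b, the inhibitor p27, was at 9.39 and 8.02 CPM at 25 nM and at 12.2 and 19.9 CPM at 50 nM (log2 0.88 ± 0.19, adjusted p = 0.0027), so its 50 nM libraries lay apart. Of 28 mitosis genes 21 rose and 1, Bub1b, fell (median 0.20), the latter not without the first 25 nM or the second 50 nM library. Mki67, a marker of dividing cells, was at 166 and 160 CPM and then at 230 and 222 CPM (log2 0.47), and the spindle gene Nusap1 at 91.3 and 87.7 CPM and then at 137 and 131 CPM (log2 0.58). DNA replication genes had 11 of 36 higher and 2 lower (median 0.05), and the number higher was 6 without the first 25 nM library and 6 without the first 50 nM library. Cdc6, which loads the replicative helicase, was the largest of these, at 200 and 188 CPM and then at 276 and 260 CPM (log2 0.47).

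Ribosome biogenesis genes moved the other way. Of 34 tested, 18 fell and none rose (median -0.11), and leaving out 1 library gave 11 to 19 lower. The count was 11 without the second 50 nM library, and the 12.1% of all genes that were lower serve as the background. Bop1, of the large subunit assembly complex, was at 241 and 246 CPM at 25 nM and at 194 and 197 CPM at 50 nM (log2 -0.32 ± 0.04). Polr1b, a subunit of RNA polymerase I, was at 204 and 208 CPM and then at 170 and 171 CPM (log2 -0.27). Fbl, Gar1 and Bysl had positive values of 0.09, 0.11 and 0.03 and did not pass, but Fbl and Gar1 were called higher without the first 50 nM library.

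Genes for the proteins of the ribosome itself and of the respiratory chain gave counts that depended on the scaling and on single libraries. Of 78 cytosolic ribosomal protein genes 15 were higher and 1 lower (median 0.06), but scaling by library totals gave 6 and 3, and leaving out the first 25 nM library gave 3 and 3. Of 77 oxidative phosphorylation genes 14 were higher and 5 lower (median 0.01), against 7 and 6 with library totals, and 5 and 7 without the first 25 nM library. With library totals the median of the latter was -0.0086. No direction is given for either list.

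Glycolysis genes were lower at 50 than at 25 nM, and the level at 25 nM itself stood above the lower doses. Of 17 tested, 10 fell and 2 rose, and the median was -0.29. Pkm, pyruvate kinase, was at 685 and 692 CPM at 25 nM and at 442 and 436 CPM at 50 nM (log2 -0.65 ± 0.03). At 12.5 nM it was at 576 and 585 CPM, below both 25 nM libraries. Ldha, lactate dehydrogenase, was at 2887 and 2925 CPM and then at 2040 and 2137 CPM (log2 -0.48 ± 0.03), with 2572 and 2608 CPM at 12.5 nM. From 12.5 to 25 nM 8 of the 17 genes rose and none fell, where 0.893% of all genes rose. Against 12.5 nM instead of 25 nM, a reference chosen after the data were seen, 5 fell and 3 rose (median -0.04), where 15.7% of all genes fell and 17.5% rose.

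Individual enzymes differed in this respect. Pfkl, a phosphofructokinase, was at 202 and 212 CPM at 25 nM and at 153 and 159 CPM at 50 nM, but at 161 and 165 CPM at 12.5 nM, and the difference between 50 and 12.5 nM did not pass (log2 -0.06, adjusted p = 0.33). Gpi1 and Pgam1 fell by 0.38 and 0.51 on the log2 scale from 25 to 50 nM. The members called higher were Hk1, the hexokinase of red cells, and Bpgm, which makes the 2,3-bisphosphoglycerate that tunes hemoglobin. Bpgm was at 28.8 and 26.1 CPM at 25 nM and at 42.2 and 38.7 CPM at 50 nM (log2 0.56 ± 0.08). Hk1 had a log2 fold change of 0.10 ± 0.04 (adjusted p = 0.041). Its call was lost with library totals, with DESeq2, without either 25 nM library and without the first 50 nM library. With RLE size factors only 1 of the 17 genes was called higher.

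Bnip3, a mitophagy receptor known to respond to low oxygen, showed the same peak at 25 nM. It was at 20.4 and 19.3 CPM at 12.5 nM, at 42.0 and 41.6 CPM at 25 nM and at 24.3 and 23.6 CPM at 50 nM. It fell from 25 to 50 nM by 0.80 on the log2 scale (SE 0.09), and stood above 12.5 nM at 50 nM by 0.27 (adjusted p = 0.03). Among the 13 tested low-oxygen genes, 1 rose (Kdm3a, a histone demethylase, log2 0.25) and 1 fell (Bnip3) from 25 to 50 nM, with a median of 0.06. Against 12.5 nM, 8 were higher at 50 nM and none lower, where 17.5% of all genes were higher and 15.7% lower.

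**Figure D4:**
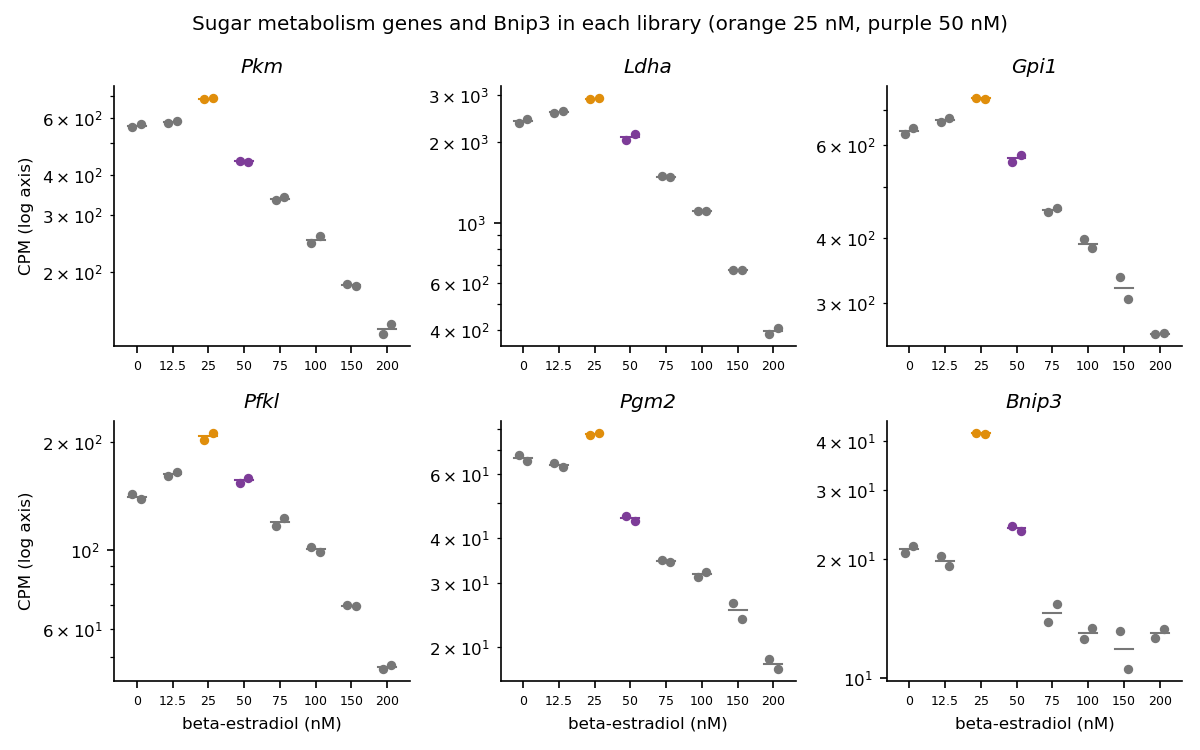
Level of 5 genes of sugar metabolism and of Bnip3 in each library (CPM, log axis) at the 8 doses of beta-estradiol in nM, spaced evenly; points are libraries and lines means of 2, with orange for 25 nM and purple for 50 nM. In all 6 panels the 25 nM libraries are the highest of the series, and for Bnip3 the 50 nM libraries (24.3 and 23.6) lie between 25 nM and 12.5 nM.

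Several stress and signalling lists were mixed. In the integrated stress response 10 of 17 genes rose and 3 fell (median 0.19). Ppp1r15a, which directs a phosphatase to the initiation factor eIF2, was at 37.7 and 37.7 CPM at 25 nM and at 70.8 and 71.4 CPM at 50 nM (log2 0.92), and the heme-regulated kinase Eif2ak1 rose by 0.66. The serine synthesis gene Psat1 fell by 0.20, and Atf4 itself, the factor the list is built on, did not pass (log2 0.10). Of 11 immediate early genes 3 rose and 2 fell, and only 1 was lower without the first 25 nM library or without either 50 nM library. The largest rise among the called members was that of Dusp1, a phosphatase of MAP kinases, from 8.79 and 8.43 CPM to 25.8 and 24.4 CPM (log2 1.54). Of 12 p53 targets 5 rose and none fell (median 0.24), with Trp53inp1 at 16.8 and 16.6 CPM and then at 32.4 and 36.9 CPM (log2 1.05). Of 16 BCL2 family and caspase genes 4 rose and 2 fell (median 0.06), where 14.1% of all genes were higher and 12.1% lower.

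Cholesterol synthesis and uptake had 5 of 21 genes higher and 1 lower (median 0.09), where 14.1% of all genes were higher and 12.1% lower. Idi1, an isomerase of the pathway, rose by a log2 value of 0.52, and Dhcr7, its last enzyme, fell by 0.45. Of 5 tested genes known as estrogen receptor targets in other cells, Ctsd and Xbp1 rose by 0.46 and 0.59, and Rara fell from 7.48 and 8.90 CPM to 4.63 and 3.55 CPM (adjusted p = 6.87e-05). Ccnd1 and Nrip1 did not pass, at -0.25 and 0.22.

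Set beside the other doublings of the dose, the step from 25 to 50 nM called many more genes than the one before it and fewer than those after it. From 12.5 to 25 nM 90 genes were higher (0.893%) and 20 lower (0.198%), 1.09% of those tested. From 50 to 100 nM 2756 were higher (27.3%) and 2661 lower (26.4%), 53.7% in all. From 100 to 200 nM 3273 were higher (32.5%) and 3185 lower (31.6%), 64.1% in all. Neighbouring doublings share libraries, so the counts are not independent. With 12.5 nM as the reference in place of 25 nM, the 50 nM libraries had 1765 genes higher (17.5%) and 1580 lower (15.7%), 33.2% in all. With 0 nM as the reference they had 1896 (18.8%) and 1481 (14.7%), 33.5% in all.

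**Figure D5:**
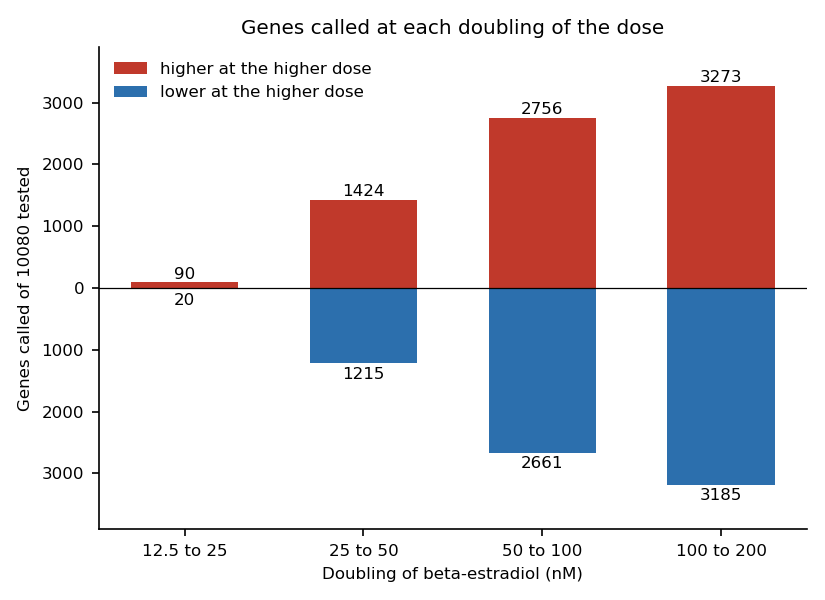
Bars give the number of genes called at each doubling of beta-estradiol (nM), of 10080 tested, higher at the higher dose above the line (red) and lower below it (blue). The counts go from 90 and 20 at 12.5 to 25 nM to 1424 and 1215 at 25 to 50 nM and reach 3273 and 3185 at 100 to 200 nM.

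The difference between successive changes was tested gene by gene. The change from 25 to 50 nM exceeded that from 12.5 to 25 nM for 472 genes (4.68%) and was below it for 272 (2.7%), 7.38% of those tested. Both changes use the 25 nM libraries with opposite sign, and without 1 of them the counts were 273 and 132 (first library left out) or 241 and 115 (second). The differences that were largest in the positive direction were those of Tmem184a, Slc4a1, Hbb-bh1 and Epb4.9, at log2 values of 2.40, 2.17, 2.01 and 1.76. Slc4a1, for example, rose by 0.59 from 12.5 to 25 nM and by 2.76 from 25 to 50 nM. The most negative were Bnip3 (-1.88), Lgals9 (-1.39), Ces2g (-1.08) and Pgm2 (-1.06), a phosphoglucomutase. Lgals9 had fallen by only 0.31 at the earlier doubling, whereas Bnip3 and Pgm2 had risen there by 1.08 and 0.28. In the heme list 14 of 17 genes had a larger change at 25 to 50 nM by this test, in the membrane list 16 of 20, and in the glycolysis list 10 of 17 a more negative one.

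Against the next doubling, 1093 genes had a higher value at 25 to 50 nM than at 50 to 100 nM (10.8%) and 839 a lower one (8.32%), 19.2% of those tested. Without the first 50 nM library, which enters both changes, the second count was 551, and with library totals the counts were 1824 and 528. The largest positive differences were for genes that fell further after 50 nM: Car1 (1.26), Prelid2 (1.25), Erv3 (1.25) and Fam195a (1.21). Car1 fell by 1.09 from 25 to 50 nM and by 2.35 from 50 to 100 nM, to 186 and 203 CPM. The largest negative differences were for genes that rose late: the glucose transporter Slc2a3 (-2.10), Btn1a1 (-2.02), Sfpi1 (-1.71) and Paqr7 (-1.64). Slc2a3 was at 1.85 and 2.50 CPM at 25 nM, 4.38 and 3.92 CPM at 50 nM, and 35.7 and 33.0 CPM at 100 nM.

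The comparison of 200 with 0 nM shares no library with 50 against 25 nM, although the spread was estimated over all 16 libraries. It called 4086 genes higher and 3977 lower, 80% of those tested. Of the 1424 genes higher at 50 nM, 1253 (88%) were also higher at 200 nM, which is 30.7% of the 4086, while higher calls made up 40.5% of all tested genes. Of the 1215 lower genes, 1040 (85.6%) were also lower at 200 nM, 26.2% of the 3977, against 39.5% of all tested genes. For those higher in both, the log2 change from 25 to 50 nM was 27.9% of the change from 0 to 200 nM at the median (quartiles 19.8% and 39.8%). For those lower in both it was 21.6% (13.7% and 36.3%).

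A smaller number of genes turned back at higher doses. Of the genes called higher at 50 nM, 69 were lower at 200 than at 0 nM, and of those called lower, 72 were higher. Ubac1, a ubiquitin ligase subunit, was at 56.9 and 58.2 CPM at 25 nM, at 84.1 and 74.5 CPM at 50 nM, and at a mean of 43.9 CPM at 200 nM. Ccne2, a cyclin of the entry into S phase, rose by 0.38 on the log2 scale and lost its call without the second 25 nM library. Eif5a2 and Ifrd1 rose by 0.36 and 0.31. In the other direction, the amino acid transporter Slc7a8 was at 124 and 131 CPM at 25 nM, at 77.5 and 84.4 CPM at 50 nM, and at a mean of 208 CPM at 200 nM. Plxnc1, Trim11 and Hes6 fell by 0.84, 0.45 and 0.44 from 25 to 50 nM and also stood higher at 200 than at 0 nM.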

How the data were processed

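Libraries were prepared from G1E-ER4 total RNA with Smart-seq2, per the labels' protocols. The deposited values are raw counts per gene, and the submitters' processing notes name bcl2fastq, STAR and build mm10; which versions, counter and strand setting were used is not given in the sources used. All 16 libraries were grouped by the dose in their labels. Counts were fitted with edgeR 4.0.16 (R 4.3.3): genes were filtered by filterByExpr on dose, library sizes were scaled by TMM, and dose was the only factor of a robust quasi-likelihood fit to 10080 genes, in which all doses share one spread. The Benjamini-Hochberg adjustment ran over all tested genes of a contrast, and genes below 0.05 were called. Standard errors are the log2 fold change divided by the root of the F statistic. CPM are not scaled by gene length, so levels of different genes are not compared.

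Alternatives were library totals, RLE size factors, DESeq2 1.42.0, no filter, a filter of 10 CPM in 2 libraries, the compared doses alone, a replicate block and leaving out each library. Other references (12.5 and 0 nM) and a crossed block were added after the data were seen. Whether replicate numbers pair libraries across doses is not known. No 2 libraries of a dose agreed within sampling noise. The chi-square per degree of freedom between the libraries of a dose was 4.14 at 50 nM and 3.01 at 25 nM. These were the highest of the series, against 1.70 to 2.92 at the other doses, while the tests use a spread shared by all doses. The chi-square is a sum over genes, in which abundant genes can weigh heavily. Rn45s took 10.1% and 10.9% of the counts in the 25 nM libraries, and its part in the sum was not tested. On simulated counts for 50 against 25 nM over 10080 genes, 64%, 78%, 90% and 100% of genes changed 1.25-, 1.5-, 2- and 4-fold were called (50 genes each), with 5 calls among 9880 unchanged genes. Whether these shares hold for the real libraries, given the higher chi-square at 25 and 50 nM, was not tested.

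Named genes are Gata1, Gata2 and the 12 highest and 12 lowest called genes with no overlap of libraries and at least 20 CPM. The 20 CPM were required of the mean at whichever compared dose had the higher mean. Also named are up to 4 members of each list with the smallest p and 4 each way for both tests of a difference between doublings. A further 4 each way come from genes called in opposite directions at 200 against 0 nM. Some list members are counted but not reported here by name. Other list members named were chosen after their values were seen. The compared doses, the 29 lists and the tests were chosen with earlier results of these data known. Coordinates are from GENCODE M21 (GRCm38), and promoters from RefSeq GRCm38.p6.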

Additional observations from a re-analysis of the deposited data

Results flagged for a closer look

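Chosen because the change from 25 to 50 nM differed by a test from the change at a neighbouring doubling of the dose, the values below are for all tested genes and for the genes named by the rule for those tests. Against the doubling from 12.5 to 25 nM, 472 genes had a higher and 272 a lower value. On the log2 scale the differences were 2.40 for Tmem184a, 2.17 for Slc4a1, 2.01 for Hbb-bh1 and 1.76 for Epb4.9. They were -1.88 for Bnip3, -1.39 for Lgals9, -1.08 for Ces2g and -1.06 for Pgm2. Against the doubling from 50 to 100 nM, 1093 genes had a higher and 839 a lower value. Here the differences were 1.26 for Car1, 1.25 for Prelid2, 1.25 for Erv3 and 1.21 for Fam195a, and -2.10 for Slc2a3, -2.02 for Btn1a1, -1.71 for Sfpi1 and -1.64 for Paqr7. All genes named for the first test except Pgm2 were also among the 12 highest or 12 lowest at 50 against 25 nM.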

How the results depend on the processing

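The counts at 50 against 25 nM (1424 and 1215) stayed within 1.5 times under the scaling, filter, tool and left-out library settings, from 1053 to 1481 higher and from 815 to 1480 lower. DESeq2 gave 1091 and 815, library totals 1209 and 1480, and leaving out a library 1053 to 1230 and 824 to 990. A replicate block gave 1406 and 1188. Same-numbered libraries correlated over 0.1 in 2 of 28 pairs of doses and at -0.197 between 25 and 50 nM, the lowest value of the 28. This does not settle whether replicate numbers pair libraries. A crossed block on the 4 libraries alone gave 1543 and 1349 of 9639 tested.

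For the test against the earlier doubling, leaving out a library gave 241 to 455 higher and 115 to 273 lower, and DESeq2 137 lower. For that against the next doubling, library totals gave 1824 and 528, DESeq2 559 lower, and leaving out a library 551 to 694 lower. From 12.5 to 25 nM, library totals gave 56 higher, no filter 153 and 40, and DESeq2 8 lower; from 100 to 200 nM library totals gave 2133 higher. The cause was not tested.

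List medians moved with library totals to 0.076 (iron), 0.174 (autophagy), 0.031 (DNA replication), 0.176 (mitosis), 0.063 (cholesterol) and 0.162 (integrated stress response). The filter of 10 CPM gave 0.233 (erythropoietin signalling), 0.346 (ubiquitin), 0.127 (low-oxygen), 0.455 (estrogen targets) and 1.32 (megakaryocyte markers). Leaving out a library gave 1.93 to 2.03 for globins, 0.098 to 0.133 for iron, -0.028 to 0.178 for progenitor regulators, 0.122 to 0.171 for erythropoietin signalling, 0.184 to 0.211 for autophagy, 0.361 to 0.450 for ubiquitin enzymes, 0.331 to 0.657 for cell cycle inhibitors, -0.140 to -0.095 for ribosome biogenesis, 0.041 to 0.081 for DNA replication, 0.173 to 0.204 for mitosis, -0.307 to -0.219 for glycolysis, 0.019 to 0.171 for low-oxygen genes, 0.156 to 0.213 for the integrated stress response, 0.121 to 0.302 for p53 targets, 0.020 to 0.098 for the BCL2 family and 0.501 to 1.11 for megakaryocyte markers.

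Of the named genes, Bnip3 turned to 0.27 with 12.5 nM as the reference. Hdc turned to 0.13 without the first 50 nM library (-3.58 without the second). Cpa3 turned to 0.27 without the first 25 nM library (-0.56 without the second). Fcgr3 turned to 0.061 without the second 25 nM library (-4.50 without the second 50 nM library). These last 3 are low-count markers that were not called in the fit to all 16 libraries. Calls were lost for Pfkl and Ier2 with the 12.5 nM reference, and for Rpl23, Slc2a3, Sfpi1 and Ccne2 without 1 library. Of list members named beside these, Hk1, Epor, Jak2, Lmo4 and Bub1b lost theirs without 1 library. With 2 libraries a dose, differences under 1.25-fold are the least certain.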

Other observations

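Gene families listed after the data were seen (12 of them) are given as counts only. Of 76 mitochondrial ribosomal proteins 14 were lower at 50 nM and 2 higher, with a median log2 fold change of -0.05, where 12.1% of all genes were lower and 14.1% higher. From 50 to 100 nM 50 were lower and 4 higher, where 26.4% of all genes were lower and 27.3% higher. Of 19 nucleoporins 7 were lower and none higher (median -0.08). Of 10 purine synthesis genes 5 were lower and none higher (median -0.11), with Impdh1, which makes the precursor of guanine nucleotides, at 13.6 and 13.3 CPM at 25 nM and 8.63 and 8.47 CPM at 50 nM. Of 16 subunits of the vacuolar proton pump, which acidifies lysosomes, 7 were higher and none lower (median 0.14).

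Other families moved little or both ways, where 14.1% of all genes were higher and 12.1% lower. Of 36 proteasome subunits 5 were higher and 2 lower, of 53 translation initiation factors 8 and 6, of 37 mitochondrial carriers 6 and 7, of 20 aminoacyl-tRNA synthetases 1 and 4, and of 9 sphingolipid genes 2 and 3. Of 17 lysosomal genes 2 were higher and 2 lower, of 11 class I antigen presentation genes 2 and none, and of 8 chaperonin subunits none and 2.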
